A study of Mus musculus with 11 samples.

Results

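The copy-number control lines are the 3 OvTrpMyc lines that the study supplied as reference input when copy number was inferred from expression: F326 splenic tumor, F326 ROV, and F361 peritoneal tumor. They were taken by name from the study's methods, are 3 of the 11 lines sequenced, and were compared here with the 4 remaining lines of the first 7 libraries (S1 to S7): F364 ROV, F364 LOV, F319 ROV, and F318 ROV. The study grew cells from gynecologic tract tissue or tumors of transgenic mice ex vivo and measured polyadenylated RNA of each line by bulk sequencing, with 1 library per line. All lines carry the genotype Ovgp1-Trp53-R270H-Myc, in which mutant p53 and Myc are expressed from the Ovgp1 promoter at the Trp53 locus, and none was treated. There was no wild-type line, so the control lines carry the transgene too. They were picked in the study for having fewer copy-number calls in a first pass over these same counts, so their expression and their choice are not independent. The F361 line had reads at the Trp53 codon of the transgene but, per the study's methods, none with the mutation.

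The control lines came from 2 mice and the other lines from 3, because F326 gave 2 control lines and F364 gave 2 other lines. Both tumor-derived lines are control lines, whereas all 4 other lines are labelled as ovary lines. Site of origin and control status can therefore be told apart only through F326 ROV, which is 1 library. No mouse gave lines to both groups, so control status and mouse cannot be told apart. Each line is 1 culture with 1 library, and p-values measure the spread between lines. Library totals of the 7 lines ranged from 13580525 to 22333181 counts. Levels are given as CPM, a gene's counts scaled to a common library size by the total of its library, and 3 counts correspond to 0.134 to 0.221 CPM in these lines.

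The 7 libraries have features their labels do not give. Genes of adult skeletal muscle fibers took 13.4% to 16.5% of the counts in the control lines and 8.60% to 15.6% in the other lines, against 0.176% to 1.38% in S8 to S11. The means were 15.3% ± 1.66 (SD, n = 3) and 13.4% ± 3.28 (SD, n = 4), and the shares overlapped (exact two-sided permutation test over 35 splits, p = 0.457). The 4 Y-linked genes examined summed to 128 to 174 CPM in the control lines, 131 to 162 CPM in the other lines, and 1.75 to 19.2 CPM in S8 to S11. The study dissected these mice for uterus, ovaries, and fallopian tubes, so they were female and carry no Y chromosome. The source of the Y-linked RNA was not tested, so differences below are between libraries and may not belong to the named lines. Of 18 epithelial genes listed 9 had enough counts to be tested, and the list summed to 6.46 to 106 CPM in the control lines, 15.0 to 171 CPM in the others, and 19.4 to 53.8 CPM in S8 to S11. Epcam was at no more than 0.884 CPM in any of the 7 lines, and Pax8 at no more than 3.04 CPM. Krt18, a keratin of simple epithelium, was at 1.52 CPM in the F326 splenic tumor, 0.668 CPM in F326 ROV, and 1.03 CPM in F361, and at 39.9, 0.759, 67.9, and 5.82 CPM in F364 ROV, F364 LOV, F319 ROV, and F318 ROV. The groups overlapped because F364 LOV was as low as the control lines (log2 fold change, control minus other, -4.59 ± 1.37 SE, edgeR, unadjusted p = 0.0094, adjusted p = 0.249; DESeq2, adjusted p = 0.021). In bulk RNA, fewer cells of a type and less RNA per cell cannot be told apart.

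A cell that divides passes through S phase, in which helicases, polymerases, and nucleotide-making enzymes copy the genome, and then through M phase, in which kinases, motor proteins, condensins, and kinetochore proteins separate the copies. E2F factors drive many S phase genes. Many M phase genes carry a cell cycle homology region (CHR) near their start, often with CCAAT boxes, which the DREAM complex holds silent in resting cells and B-Myb and FoxM1 complexes use in dividing ones. Myc promotes growth and ribosome production, and homologous recombination and the Fanconi pathway repair DNA during replication.

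The promoters of the cell cycle genes show this division of motifs. The CHR letters TTTGAA were found on either strand within the window from 250 bases before to 50 bases after a RefSeq start in 24 of 31 M phase genes with a window (77.4%), against 14.2% of the 10356 tested genes with a window and 4 of 31 S phase genes (12.9%). CCAAT was found in 24 of 31 M phase genes (77.4%), 19 of 31 S phase genes (61.3%), and 42.4% of all. E2F letters, searched as TTTCCCGC, TTTGGCGC, or TTTCGCGC, were found in 13 of 31 S phase genes (41.9%), 3 of 31 M phase genes (9.68%), and 3.93% of all. A match describes the sequence and is no evidence of binding. Given here, because they were among the lowest in the control lines by fold change among genes whose groups did not overlap, are windows of 230 bases, from 200 bases before the start, of 3 M phase genes with a CHR and 2 S phase genes with an E2F match. Espl1 encodes separase, which cuts the cohesin that ties sister chromatids. Ncapg encodes a condensin subunit, Cenpf a kinetochore protein, Orc1 the largest subunit of the origin recognition complex, and Mcm5 a subunit of the replicative helicase. The sequences are RefSeq's on GRCm38.p6, 5′ to 3′ on the gene's strand, with the matched letters in capitals. In Mcm5, 2 overlapping matches, 1 on each strand, are marked as 1 run.
Espl1 (chr15:102296093-102296322, plus strand): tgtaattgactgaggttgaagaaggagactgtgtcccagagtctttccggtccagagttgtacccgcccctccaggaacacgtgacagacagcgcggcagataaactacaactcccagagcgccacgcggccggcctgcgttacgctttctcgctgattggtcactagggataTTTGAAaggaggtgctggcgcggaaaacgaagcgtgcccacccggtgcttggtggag
Ncapg (chr5:45669725-45669954, plus strand): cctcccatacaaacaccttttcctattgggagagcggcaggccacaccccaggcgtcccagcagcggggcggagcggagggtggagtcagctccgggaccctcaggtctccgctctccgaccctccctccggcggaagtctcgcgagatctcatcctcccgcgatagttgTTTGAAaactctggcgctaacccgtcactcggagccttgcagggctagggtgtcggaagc
Cenpf (chr1:189688057-189688286, minus strand): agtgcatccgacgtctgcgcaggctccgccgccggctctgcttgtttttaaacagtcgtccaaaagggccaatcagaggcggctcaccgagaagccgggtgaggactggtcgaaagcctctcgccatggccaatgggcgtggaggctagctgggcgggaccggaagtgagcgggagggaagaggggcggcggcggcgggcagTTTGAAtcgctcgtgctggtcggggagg
Orc1 (chr4:108579254-108579483, plus strand): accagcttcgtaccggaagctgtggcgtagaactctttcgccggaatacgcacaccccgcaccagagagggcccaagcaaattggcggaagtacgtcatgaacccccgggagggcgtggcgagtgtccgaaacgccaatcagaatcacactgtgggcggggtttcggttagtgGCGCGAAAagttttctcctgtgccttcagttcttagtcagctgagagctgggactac
Mcm5 (chr8:75109309-75109538, plus strand): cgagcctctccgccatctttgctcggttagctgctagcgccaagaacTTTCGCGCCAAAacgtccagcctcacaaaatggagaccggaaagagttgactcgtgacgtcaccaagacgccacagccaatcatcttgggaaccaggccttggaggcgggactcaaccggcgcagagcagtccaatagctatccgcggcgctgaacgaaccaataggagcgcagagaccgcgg

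Myc and Brca1 were given as markers of this comparison together with Ccne1. Values are listed throughout in the order F326 splenic tumor, F326 ROV, and F361 peritoneal tumor for the control lines, and F364 ROV, F364 LOV, F319 ROV, and F318 ROV for the others. Myc (chromosome 15, 61985391 to 61990374, GRCm38), to which transgene reads also count, was at 22.2, 31.8, and 6.92 CPM in the control lines and 53.3, 50.2, 55.3, and 93.6 CPM in the others. Every control line lay below every other line, and the log2 fold change (control minus other, as in all fold changes here) was -1.49 ± 0.45 (SE; edgeR quasi-likelihood test, unadjusted p = 0.0104, adjusted p = 0.25). Brca1 (chromosome 11, 101488764 to 101551955), a core protein of homologous recombination, was at 2.40, 6.68, and 0.442 CPM against 9.13, 9.43, 5.42, and 11.9 CPM. The groups overlapped because F326 ROV exceeded F319 ROV (log2 fold change -1.40 ± 0.72 SE, unadjusted p = 0.088). Ccne1 (chromosome 7, 38097984 to 38107534), which encodes the cyclin E1 that starts replication, was at 3.29, 1.74, and 1.18 CPM against 2.41, 4.05, 5.19, and 16.2 CPM. Here the splenic tumor exceeded F364 ROV (log2 fold change -1.52 ± 0.65 SE, unadjusted p = 0.0456). Trp53, which shares its locus with the transgene, was at 16.1, 19.5, and 15.9 CPM against 14.6, 10.4, 23.1, and 25.7 CPM, with a log2 fold change of 0.06 ± 0.27 SE whose sign depended on the scaling.

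Across all 15554 genes tested, edgeR's quasi-likelihood test called 0 genes at a Benjamini-Hochberg adjusted p under 0.05, with a lowest adjusted p of 0.173. At an unadjusted p under 0.05 it had 1191 genes higher (7.66%) and 1221 lower (7.85%) in the control lines, and DESeq2, with 16309 genes tested, called 189 higher (1.16%) and 327 lower (2.01%) at an adjusted p under 0.05. Without the F326 splenic tumor, edgeR called 85 higher (0.529%) and 26 lower (0.162%) of 16073. Members are therefore described below by whether the 3 control lines lay wholly above or below the 4 others in CPM, beside the background over all genes: 744 genes lay higher (4.78%) and 1551 lower (9.97%). With CPM rescaled by edgeR's TMM factors the split was 1057 higher (6.80%) and 1248 lower (8.02%). Leaving out a line can only keep or raise such counts, so they are set beside the background of the same lines, which without the F326 splenic tumor was 17.1% higher and 22.4% lower. The median log2 fold change over all genes was 0.02, or -0.11 when scaled by library totals alone.

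M phase genes were lower in the control lines. Of 39 tested, 35 (89.7%) lay lower without overlap, against 9.97% of all genes, and 0 lay higher. All 39 had a negative fold change, with a median of -1.70 on the log2 scale, 33 had an unadjusted p under 0.05, and DESeq2 called 25 lower. The edgeR fit without the splenic tumor called 0 of the 39. The list summed to 301, 672, and 180 CPM in the control lines and 1151, 1165, 1263, and 1749 CPM in the others. S8 to S11 lay above all 7, between 5046 and 5787 CPM.

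**Figure D1:**
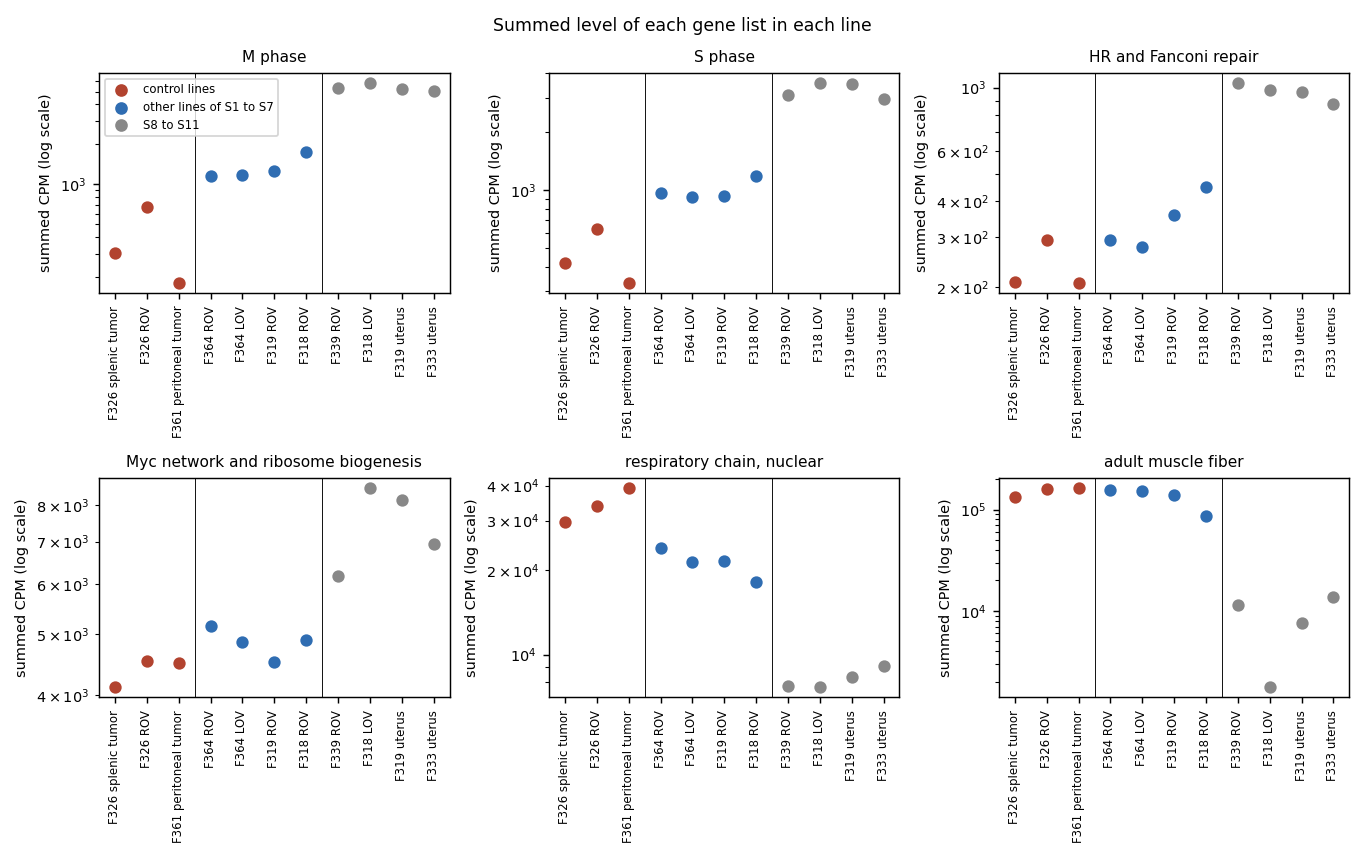
Summed CPM (log axis) of 6 gene lists in each of the 11 lines, 1 point per line: control lines, other lines of S1 to S7, and S8 to S11. The control lines lie below the other lines of S1 to S7 for M phase (180 to 672 against 1151 to 1749 CPM) and S phase, and above them for nuclear respiratory chain genes.

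Among the kinases and their regulators, Bub1, a spindle checkpoint kinase, was at 3.29, 6.54, and 0.295 CPM against 17.0, 19.0, 14.3, and 28.5 CPM. F361 was the lowest line and F318 ROV the highest, an order that recurred for most of the list (log2 fold change -2.42 ± 0.76 SE, unadjusted p = 0.012). Foxm1, the transcription factor of M phase genes, was at 11.6, 14.1, and 1.62 CPM against 37.0, 41.1, 39.9, and 48.2 CPM (-2.07 ± 0.59 SE, unadjusted p = 0.0076). Cdc20, which activates the anaphase-promoting complex, had the same separation with a narrower spread, at 9.24, 20.4, and 7.51 CPM against 41.0, 41.3, 60.0, and 57.2 CPM. Its fold change was -1.89 ± 0.35 SE (unadjusted p = 0.00053).

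Among genes of chromosome structure and separation, Espl1 was at 4.62, 6.48, and 1.18 CPM against 21.1, 21.5, 16.3, and 26.0 CPM (log2 fold change -2.26 ± 0.51 SE, unadjusted p = 0.0021). Ncapg was at 2.53, 4.74, and 0.147 CPM against 11.2, 11.3, 11.2, and 16.1 CPM, and its F361 value rests on 2 counts. Top2a, which untangles DNA and had the most counts of the list, was at 20.4, 45.9, and 9.5 CPM against 92.6, 77.6, 65.8, and 127 CPM (-1.73 ± 0.48 SE, unadjusted p = 0.0067). In each of these genes every control line was below every other line. Mki67, the gene of the Ki-67 antigen used to count cycling cells, was at 15.2, 33.9, and 3.24 CPM against 58.6, 69.9, 64.7, and 122 CPM. The 4 genes whose groups overlapped were Ccnb2, Nusap1, Prc1, and Hmmr, and in each F326 ROV was the control line that reached the range of the others.

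**Figure D2:**
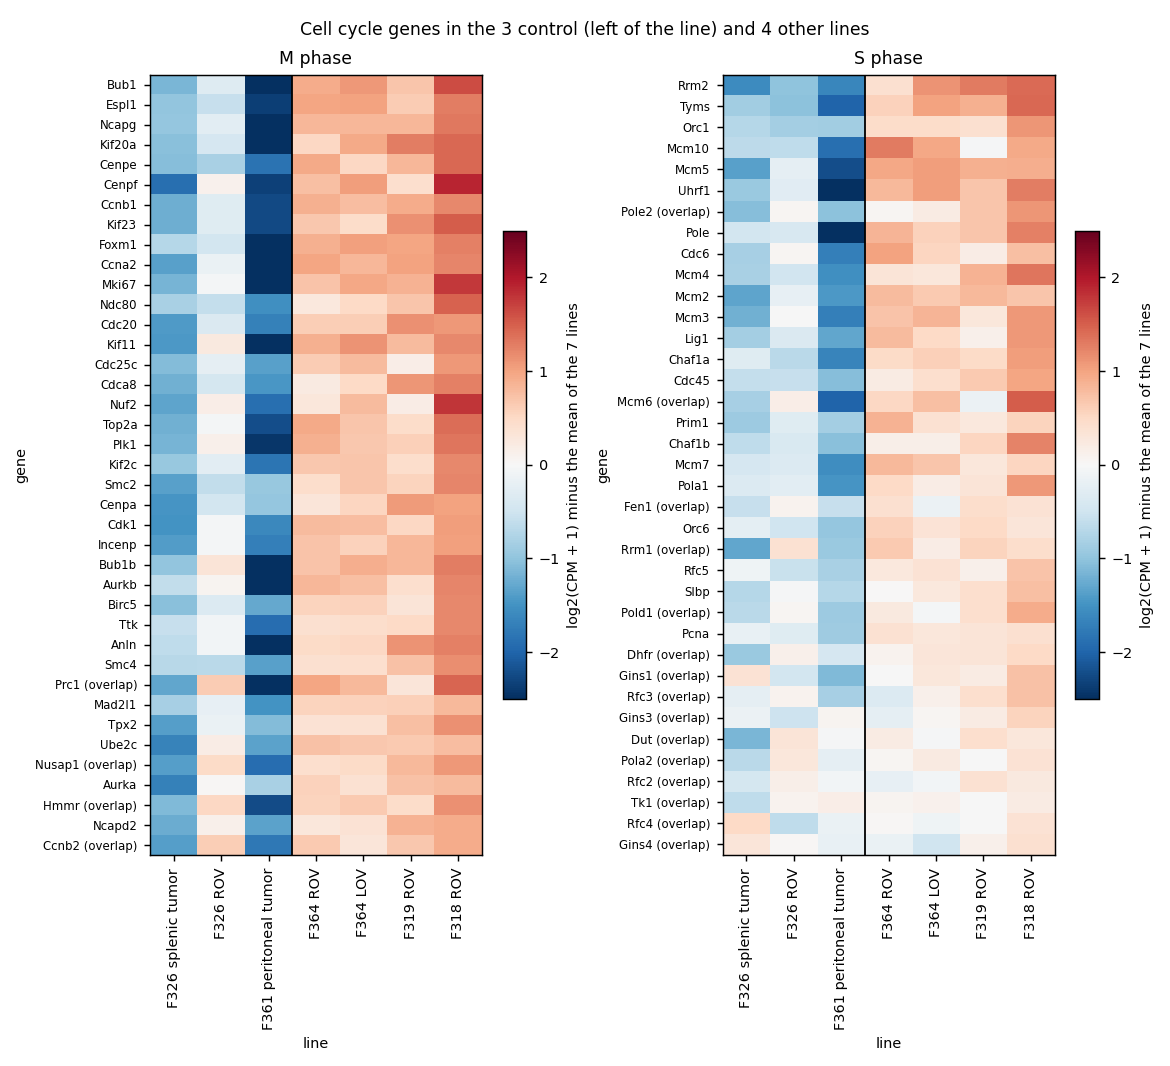
Each row is a tested M phase (left, 39 genes) or S phase (right, 37 genes) gene and each column a line, with color giving log2(CPM + 1) minus the gene's mean over the 7 lines. Rows run from the lowest to the highest fold change, genes whose groups overlap are labelled, and the 3 columns left of the vertical line are the control lines, of which F361 has the deepest blue for most M phase genes and F326 ROV the lightest.

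S phase genes were lower to a smaller extent. Of 37 tested, 22 (59.5%) lay lower without overlap and 0 higher, the median log2 fold change was -1.21, and DESeq2 called 15 lower, whereas edgeR without the splenic tumor called 1, Rrm2. The sums were 420, 628, and 330 CPM in the control lines and 960, 919, 930, and 1178 CPM in the others. Rrm2, the regulated subunit of ribonucleotide reductase, was at 3.54, 5.74, and 3.39 CPM against 16.9, 28.4, 32.3, and 35.1 CPM (log2 fold change -2.60 ± 0.31 SE, unadjusted p = 2.6e-05, adjusted p = 0.175). Tyms, which makes thymidylate, was at 4.30, 3.74, and 1.40 CPM against 13.4, 18.4, 16.8, and 25.1 CPM (-2.40 ± 0.41 SE, unadjusted p = 0.00034). In both genes the control lines were well apart from the others. Orc1 was low in all 7 lines, at 0.759, 0.601, and 0.589 CPM against 2.98, 2.97, 2.82, and 5.25 CPM. Of the replicative helicase, Mcm2, Mcm3, Mcm4, Mcm5, and Mcm7 lay lower without overlap, and Mcm6 did not. Mcm5 was at 9.37, 21.8, and 4.71 CPM against 51.5, 53.9, 48.8, and 49.1 CPM (-2.0 ± 0.47 SE, unadjusted p = 0.0024). Fold changes near 0 were seen for Gins4, Rfc2, Rfc4, and Tk1.

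Genes that govern entry into the cycle leaned lower in the control lines. Of 26 G1 control genes, 7 lay lower (26.9%) and 1 higher (3.85%), 23 had a negative fold change, and the median was -0.61 on the log2 scale. Without the F326 splenic tumor 14 lay lower (53.8%, against 22.4% of all genes), and without F326 ROV 13 (50%, against 17.7%). E2f7 and E2f8, E2F repressors made in cycling cells, lay lower, as did Ccnd1, Ccnd2, E2f3, Tfdp1, and the inhibitor Cdkn2c. E2f7 was at 1.65, 2.74, and 0.147 CPM against 7.67, 8.92, 11.4, and 13.3 CPM (-2.63 ± 0.71 SE, unadjusted p = 0.0054). The only member that lay higher was Cdkn1c, which encodes the cell cycle inhibitor p57, at 12.7, 16.0, and 18.1 CPM against 10.3, 8.42, 6.36, and 6.74 CPM (1.06 ± 0.32 SE, unadjusted p = 0.0094). Cdkn1a, the gene of the inhibitor p21 and a p53 target, had the most counts and overlapped: 196, 16.3, and 17.0 CPM against 291, 664, 134, and 227 CPM. Its 2 lowest lines were F326 ROV and F361.

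Of 36 genes of the Myc network and ribosome biogenesis, 14 lay lower (38.9%) and 0 higher, with a median log2 fold change of -0.54. With TMM-scaled CPM the count was 8 lower (22.2%, against 8.02% of all genes) and 1 higher (2.78%, against 6.80%). Without the F326 splenic tumor, in CPM, 24 lay lower (66.7%, against 22.4%). Cad, an enzyme of pyrimidine synthesis and a known Myc target, was at 29.1, 26.0, and 17.1 CPM against 52.3, 60.1, 70.6, and 88.5 CPM (-1.35 ± 0.24 SE, unadjusted p = 0.00043). Nolc1, a nucleolar protein, was at 57.5, 64.9, and 47.1 CPM against 122, 135, 107, and 119 CPM (-0.99 ± 0.23 SE, unadjusted p = 0.0022). In both, the control lines were well below the others. Mycl lay lower, but its group mean rested on F318 ROV at 35.2 CPM, with the other 6 lines between 0.810 and 2.41 CPM. The E-box letters CACGTG were found in the windows of 9 of 30 genes of this list (30%) and 11.5% of all.

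Of 36 homologous recombination and Fanconi genes tested, 12 lay lower (33.3%) and 0 higher, the median log2 fold change was -0.70, and DESeq2 called 4 lower, whereas edgeR without the splenic tumor called 0. Without F326 ROV 19 lay lower (52.8%, against 17.7% of all genes), and without the splenic tumor 13 did (36.1%, against 22.4%). Among the 12 that lay lower were Brca2, a mediator of homologous recombination, Rad54l, Rad54b, Rbbp8, Exo1, Dna2, Brip1, Chek1, Fancd2, Fanci, and Fancm. Exo1, a resection nuclease, was at 1.01, 2.54, and 0.589 CPM against 5.20, 5.06, 3.85, and 11.4 CPM (-2.05 ± 0.57 SE, unadjusted p = 0.0066). No control line reached another line in this gene. Of the 30 other DNA repair genes, 1 lay lower and 1 higher (3.33% each), and their median log2 fold change was -0.00. With the splenic tumor left out 7 lay lower (23.3%, near the 22.4% of all genes). The lower one was Polq, the polymerase of theta-mediated end joining, at 0.759, 0.668, and 1.18 CPM against 2.60, 1.90, 4.48, and 7.08 CPM (-2.01 ± 0.50 SE, unadjusted p = 0.0037). Ddb2, of nucleotide excision repair, was the higher one, at 3.02 to 3.27 CPM against 2.03 to 2.96 CPM (unadjusted p = 0.22). Of 26 p53 targets 3 lay lower, Plk2, Plk3, and Tnfrsf10b, and 1 higher, the same Ddb2. These shares were 11.5% and 3.85%, and 18 of the 26 fold changes were negative, with a median of -0.54. The splenic tumor decided the count, since without it 14 lay lower (53.8%, against 22.4% of all genes) and 5 higher (19.2%, against 17.1%).

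**Figure D3:**
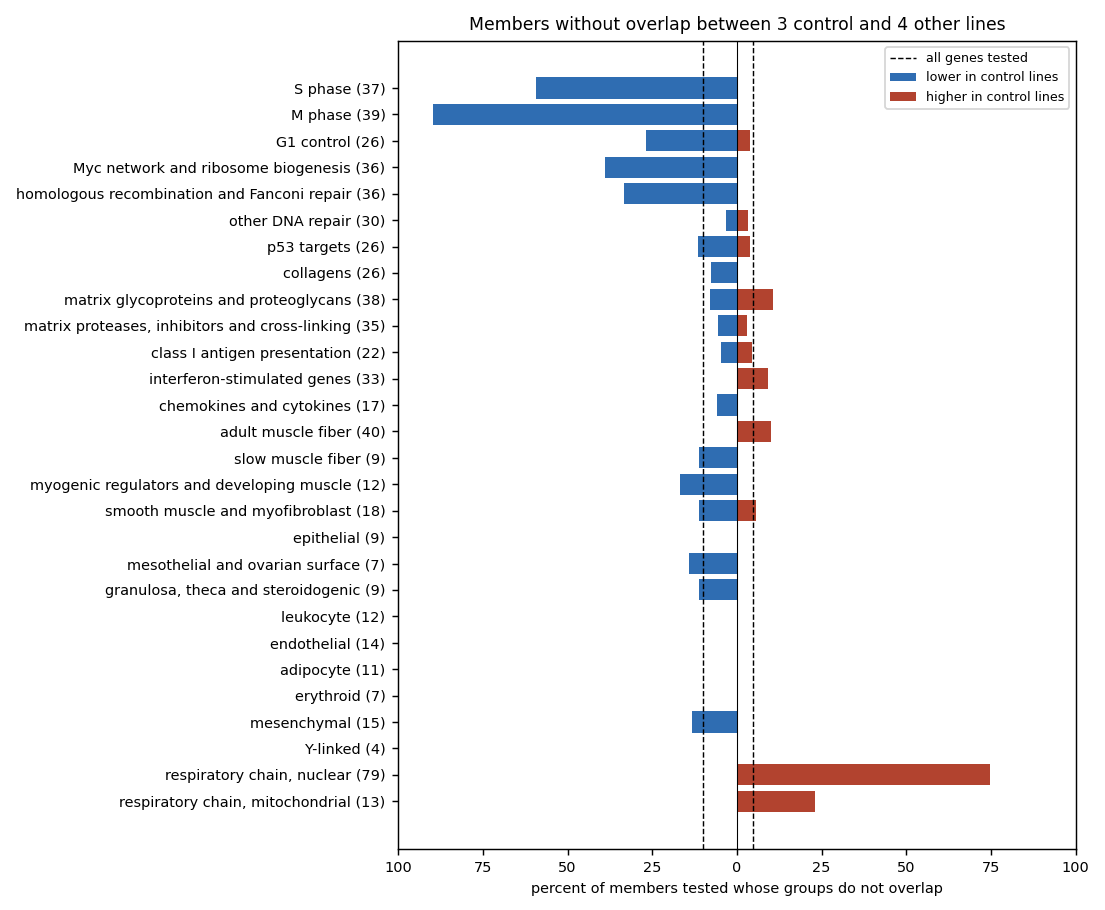
Percent of tested members of each list (number in brackets) that lay lower (left bars) or higher (right bars) in all 3 control lines than in all 4 others, with dashed lines at the background over all genes, 9.97% lower and 4.78% higher. M phase (89.7%) and S phase (59.5%) extend farthest to the left and nuclear respiratory chain genes (74.7%) farthest to the right, whereas matrix, immune, and adult muscle fiber lists reach no more than 10.53%.

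The M phase, S phase, and homologous recombination and Fanconi programs move with the difference between the 7 lines and S8 to S11. Summed p53 targets did not. They were at 1810 to 2293 CPM in the control lines, 2013 to 2856 CPM in the others, and 1199 to 1311 CPM in S8 to S11. All 39 M phase genes and 35 of the 37 S phase genes were higher in each of S8 to S11 than in each of S1 to S7. Of the 4032 tested genes with that pattern, 954 (23.7%) lay lower in the control lines and 12 (0.298%) higher, with a median log2 fold change of -0.34. The M phase share, 89.7%, and the S phase share within the pattern, 62.9%, stand beside that 23.7%. Within it, 11 of 31 homologous recombination and Fanconi genes lay lower (35.5%). Vim, a filament protein of mesenchymal cells, also lay lower, at 214 to 628 CPM in the control lines and 629 to 1280 CPM in the others. Summed mesenchymal markers were 571 to 1186 CPM in the control lines, 1106 to 2842 CPM in the others, and 5149 to 6237 CPM in S8 to S11. Divided by that sum, M phase was 0.278, 0.566, and 0.315 in the control lines against 1.04, 0.775, 0.821, and 0.615 in the others, which did not overlap, whereas S phase over the same sum overlapped.

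Respiratory chain genes went the other way. These lists were written after values had been seen, so their counts are a description. Of 79 nuclear genes tested, 59 (74.7%) lay higher without overlap, against 4.78% of all genes, and 0 lower. Their median log2 fold change was 0.85, 65 had an unadjusted p under 0.05, and DESeq2 called 15 higher, whereas edgeR without the splenic tumor called 0. The sums were 29589, 33715, and 39374 CPM in the control lines and 23981, 21428, 21491, and 18146 CPM in the others, while S8 to S11 had 7649 to 9121 CPM. By complex, 29 of 37 genes of complex I, which oxidizes NADH, lay higher, as did 2 of 4 of complex II, 6 of 8 of complex III, 8 of 15 of complex IV, and 14 of 15 of complex V, the ATP synthase. Of the 2758 tested genes lower in each of S8 to S11 than in each of S1 to S7, 403 (14.6%) lay higher in the control lines. That pattern held 73 of the 79, of which 59 (80.8%) lay higher.

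Ndufb9, of complex I, was at 640, 621, and 805 CPM against 416, 341, 392, and 383 CPM (0.97 ± 0.24 SE, unadjusted p = 0.0031). Atp5h, of the ATP synthase, was at 224, 244, and 290 CPM against 134, 109, 142, and 148 CPM (1.06 ± 0.20 SE, unadjusted p = 0.0006). The groups did not overlap in either gene, and the control lines spanned nearly as many CPM as the gap to the others. Ndufs8, a complex I subunit, was at 235, 339.2, and 403 CPM against 180, 151, 187, and 131 CPM (1.12 ± 0.28 SE, unadjusted p = 0.0034). Cox7a1, a form of a complex IV subunit typical of heart and skeletal muscle, was at 184, 323, and 445 CPM against 166, 182, 122, and 63.2 CPM (1.32 ± 0.47 SE, unadjusted p = 0.022). Of the 13 mitochondrially encoded genes, 3 lay higher (23.1%, against 4.78% of all genes), mt-Co2, mt-Co3, and mt-Atp6. All 13 had a positive fold change, with a median of 0.65. With the muscle fiber share as a covariate the median of the nuclear genes was 0.69, and without F318 ROV, the line with the lowest fiber share, it was 0.71.

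The count of muscle fiber genes depended on single lines. Of 40 adult fiber genes tested, 4 lay higher (10%), Mb, Tnnc2, Tcap, and Actn2, and 0 lower, with a median log2 fold change of 0.48 and 6 negative fold changes. Without the F326 splenic tumor 16 lay higher (40%, against 17.1% of all genes), and without F364 ROV 12 (30%, against 6.71%). Mb, which encodes the oxygen-binding myoglobin, was at 2414, 3676, and 4832 CPM against 1346, 1565, 1343, and 938 CPM (1.58 ± 0.37 SE, unadjusted p = 0.0025). It was the only 1 of the 4 with a fold change over 1 on the log2 scale. Myh4, the fast myosin with the most counts, was within range in both groups, at 16733 to 27684 against 12090 to 32188 CPM. Of 12 myogenic and developing muscle genes, Myog and Musk lay lower (16.7%, against 9.97% of all genes). Myog, the myogenin factor of muscle differentiation, was at 2.85, 4.34, and 5.23 CPM against 15.9, 30.4, 15.0, and 23.2 CPM (-2.25 ± 0.39 SE, unadjusted p = 0.00036). Musk, a receptor kinase of the nerve-muscle synapse, was at 6.20, 10.7, and 9.79 CPM against 26.1, 41.8, 12.5, and 21.4 CPM. Both genes were at no more than 1.69 CPM in S8 to S11.

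Smooth muscle and myofibroblast genes had 1 of 18 higher (5.56%), Tpm2, and 2 lower (11.1%), the matricellular gene Cyr61 and the actin-binding gene Cald1. With F318 ROV left out 4 lay higher (22.2%, against 6.22% of all genes), and with the splenic tumor left out 4 lay higher (22.2%, against 17.1%) and 5 lower (27.8%, against 22.4%). Cyr61 was at 128, 105, and 92.4 CPM against 241, 288, 519, and 427 CPM (-1.61 ± 0.28 SE, unadjusted p = 0.00037). The list's median log2 fold change, -0.97, became 0.18 without F318 ROV. The sum over the list went the other way, at 20070 to 22892 CPM in the control lines and 16732 to 19969 CPM in the others. Des, which encodes desmin of all muscle types and had the most counts of the list, overlapped, at 4586 to 8703 CPM against 4340 to 8094 CPM. The sum includes Des, so it is no measure of smooth muscle alone. Tpm2 was at 5321.5 to 6627 CPM against 2552 to 4922 CPM. In S8 to S11 Des was at 51.7 to 561 CPM and Tpm2 at 642 to 1328 CPM.

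**Figure D4:**
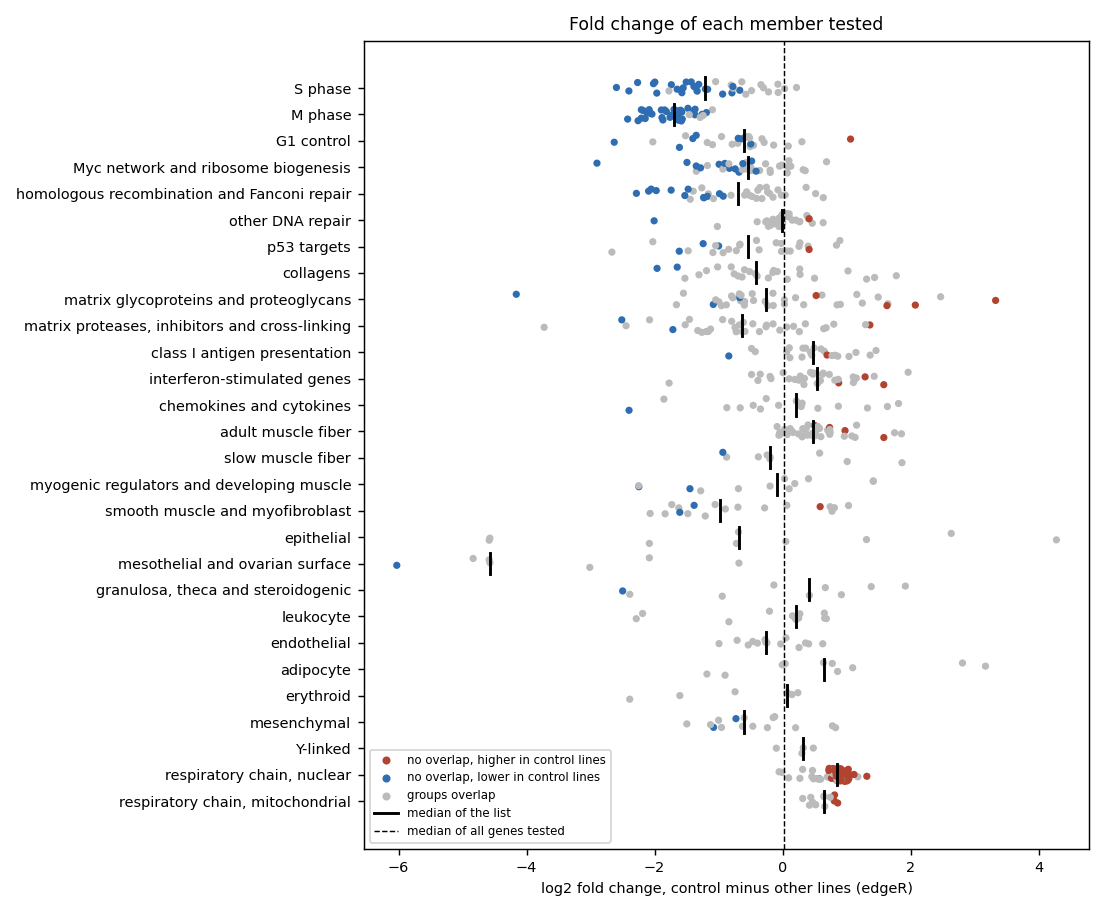
Log2 fold change (control minus other lines, edgeR) of each tested member of each list, 1 point per gene, colored where the groups did not overlap. Thick bars give list medians, -1.70 for M phase and 0.85 for the nuclear respiratory chain among them, and the dashed line is the median of all genes, 0.02.

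Of 26 collagens tested, 2 lay lower (7.69%) and 0 higher, and the median log2 fold change of -0.41 became 0.31 without F318 ROV. Those 2 were Col4a1 and Col4a2, the chains of basement membrane collagen IV, which lie head to head on chromosome 8. Col4a1 was at 155, 348, and 107 CPM against 420, 1042, 992, and 988 CPM (-1.96 ± 0.48 SE, unadjusted p = 0.003). Col4a2 was at 133, 259, and 83.6 CPM against 268, 568, 572, and 783 CPM (-1.65 ± 0.44 SE, unadjusted p = 0.0053). Fibrillar Col1a1 varied far more within the groups than between them, from 259 to 2247 CPM in the control lines and 34.8 to 5592 CPM in the others.

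Among 38 glycoproteins and proteoglycans, 4 lay higher (10.53%, against 4.78% of all genes) and 3 lower (7.89%, against 9.97%). Lower were Spp1, which encodes osteopontin, and the laminin chains Lama5 and Lamc1. When the splenic tumor was left out, 9 lay higher (23.7%, against 17.1% of all genes) and 8 lower (21.1%, against 22.4%). Spp1 was at 10.3, 7.08, and 9.13 CPM against 63.9, 341, 22.7, and 255 CPM (-4.16 ± 0.94 SE, unadjusted p = 0.0019). Higher were Mfap4, Aspn, Prelp, and Dcn, of which the last 3 are small leucine-rich proteoglycans. Aspn was at 39.2, 10.1, and 12.5 CPM against 3.80, 5.06, 5.01, and 8.11 CPM (2.07 ± 0.49 SE, unadjusted p = 0.0027). Its log2 fold change was 1.18 without the splenic tumor. Mfap4, a protein of elastic fibers, was at 3.73, 4.81, and 8.76 CPM against 0.507, 0.253, 1.48, and 0.228 CPM. Of 35 proteases, inhibitors, and cross-linking enzymes, Plaur, the urokinase receptor, and Loxl2 lay lower (5.71%) and Serpine2 higher (2.86%), and without the splenic tumor 9 lay lower (25.7%, near the 22.4% of all genes). The median log2 fold change of the 35 was -0.63, and 26 were negative. Plaur was at 10.2, 2.47, and 2.65 CPM against 30.7, 40.9, 23, and 32.3 CPM (-2.51 ± 0.57 SE, unadjusted p = 0.0021). Without the splenic tumor its log2 fold change was -3.54 (edgeR, adjusted p = 0.028).

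Of 33 interferon-stimulated genes 3 lay higher (9.09%), Ifit3, Usp18, and Irf7, and 0 lower, with a median log2 fold change of 0.54. Among the lines other than the splenic tumor 8 lay higher (24.2%, against 17.1% of all genes), and without F319 ROV 6 (18.2%, against 7.14%). The count of 0 lower rested on single lines too, with 4 lower without F326 ROV (12.1%, against 17.7%) and 2 lower without F364 ROV (6.06%, against 15.4%). Ifit3, an interferon-induced antiviral gene, was at 5.57, 5.54, and 4.49 CPM against 1.33, 1.96, 2.46, and 1.83 CPM (1.58 ± 0.33 SE, unadjusted p = 0.0013). Irf7, the factor that amplifies interferon, was at 5.51, 5.54, and 6.63 CPM against 4.06, 2.28, 4.07, and 3.65 CPM. Many other members were lowest in both F364 lines, whereas F319 ROV or F318 ROV reached the control lines, and the groups overlapped. Of 22 class I antigen presentation genes, H2-Q7 lay higher (4.55%) and the chaperone Pdia3 lower (4.55%), with a median of 0.47 and 3 negative fold changes. Without the F326 splenic tumor 10 lay higher (45.5%, against 17.1% of all genes). H2-Q7 shares sequence with other class I genes, so its counts are uncertain. Of 17 chemokines and cytokines only Cxcl1, a neutrophil attractant, lay lower (5.88%, against 9.97% of all genes). It was at 1.65, 0.401, and 1.03 CPM against 2.16, 5.06, 3.54, and 14.7 CPM (-2.40 ± 0.74 SE, unadjusted p = 0.011).

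Markers of other cells were compared as well. The study describes the lines as established by passaging in culture, and whether other cells were present was not tested. In the leukocyte (12 tested), endothelial (14), adipocyte (11), erythroid (7), epithelial (9), and Y-linked (4) lists, 0 members lay higher or lower without overlap. That count rested on single lines for some lists. Without the F326 splenic tumor 5 adipocyte genes lay higher (45.5%, against 17.1% of all genes), and without F319 ROV 2 Y-linked genes did (50%, against 7.14%). Leukocyte markers summed to 70.0 to 131 CPM in the control lines, 79.1 to 135 CPM in the others, and 9.25 to 21.3 CPM in S8 to S11. In the same order, adipocyte markers summed to 2177 to 2908, 2333 to 4014, and 164 to 356 CPM. Erythroid markers summed to 227 to 1217, 93.6 to 932, and 4.76 to 33.0 CPM. Endothelial markers summed to 300 to 632, 487 to 802, and 14.5 to 304 CPM. Of 7 mesothelial and ovarian surface genes Msln lay lower (14.3%, against 9.97% of all genes). The list summed to 3.80 to 78.2 CPM against 10 to 886 CPM, with the highest sum in F319 ROV. Of 9 granulosa and steroidogenic genes Inhba lay lower (11.1%, against 9.97%), at 8.04, 1.74, and 5.89 CPM against 12.2, 21.8, 33.2, and 71.3 CPM. Without F326 ROV 5 of them lay lower (55.6%, against 17.7%). Of 15 mesenchymal genes Vim and Zeb2 lay lower (13.3%, against 9.97% of all genes). Krt5 and Krt14, keratins of basal epithelium, differed within the control lines, with Krt5 at 0.253, 18.8, and 48.7 CPM. The part of these cells in the differences above was not tested.

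By the rule used where no gene passes the test, the genes with the widest gap between groups and a mean of at least 5 CPM were named in each direction. The widest was Slco2a1 (chromosome 9, 102988712 to 103096002), a prostaglandin transporter, at 3.10, 3.07, and 2.65 CPM against 16.8, 38.4, 33.5, and 29.3 CPM. Its fold change was -3.20 ± 0.35 SE (edgeR, unadjusted p = 1.1e-05, adjusted p = 0.173), and it passed an adjusted p of 0.05 in DESeq2 (adjusted p = 1.8e-12), in edgeR without the splenic tumor (adjusted p = 0.036), and in edgeR with no filter on low counts. Unc5b, a netrin receptor, was at 26.7, 47.4, and 14.4 CPM against 164, 218, 171, and 164 CPM (-2.51 ± 0.41 SE, unadjusted p = 0.00023). Pim1, a proto-oncogene kinase, had the smallest SE of the 10 lower genes, at 15.4, 12.6, and 12.2 CPM against 49.4, 51.7, 45.7, and 49.4 CPM (-1.76 ± 0.23 SE, unadjusted p = 4.3e-05). Chtf18, which helps load the replication clamp, was at 2.91, 3.27, and 1.62 CPM against 11.4, 10.7, 13.0, and 11.9 CPM. Siglecg, Fgd3, Fam107b, Tyms, Rrm2, and Myog completed the 10 lower genes, with log2 fold changes from -3.92 for Siglecg to -2.25 for Myog.

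The 10 higher genes had smaller gaps. Enpp2, which encodes autotaxin, the enzyme that makes lysophosphatidic acid, was at 22.2, 21.8, and 22.2 CPM against 7.67, 7.66, 8.60, and 9.25 CPM (1.54 ± 0.20 SE, unadjusted p = 4.5e-05, adjusted p = 0.175). Islr was at 28.2, 27.5, and 23.1 CPM against 6.21, 3.54, 10.2, and 8.05 CPM (2.06 ± 0.31 SE, unadjusted p = 0.00013). Neither gene varied much within the control lines. Abi3bp, a matrix-binding protein, was highest in the splenic tumor, at 44.0 CPM, with 12.7 and 14.1 CPM in the other control lines and 1.6 to 5.96 CPM elsewhere. Lmcd1, Lsmem1, Rilp, and Retnla were the remaining ones beside Mb, Atp5h, and Ndufb9. S8 to S11 gave no common order for Enpp2, Islr, and Abi3bp, which ranged there from 0.557 to 43.3, 0.444 to 74.0, and 0 to 101.2 CPM. Lmcd1, Lsmem1, Mb, Atp5h, Rilp, and Ndufb9 were lower in each of S8 to S11 than in each of S1 to S7. Of the lower genes, Unc5b, Fgd3, Chtf18, Tyms, and Rrm2 were higher in each of S8 to S11, and Myog was lower. Retnla, Slco2a1, Siglecg, Pim1, and Fam107b overlapped.

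**Figure D5:**
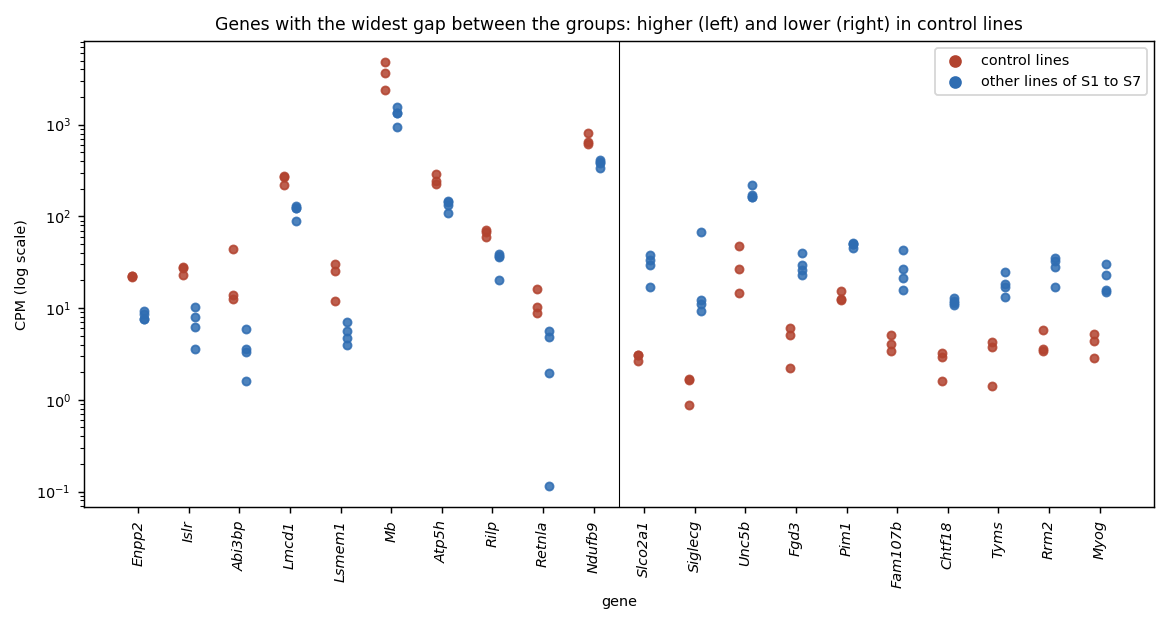
CPM (log axis) of the 10 higher and 10 lower genes with the widest gap between groups, 1 point per line, with control lines to the left of the other lines in each pair. In each gene the groups are apart, the lower genes by more than the higher ones, and Siglecg in F318 ROV, at 68.2 CPM, and Retnla in F318 ROV, at 0.114 CPM, stand away from their group.

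The control lines were not a homogeneous set. The mean Euclidean distance on log2(CPM + 1) over 21054 genes was 113 among the 3 control lines and 112 among the remaining pairs, a ratio of 1.0 (exact one-sided permutation test over 35 choices of lines, p = 0.571). F326 ROV and F361 were 86.4 apart, closer than either was to the F326 splenic tumor, at 128 and 124. The splenic tumor came from the same mouse as F326 ROV yet was nearer to F364 ROV, at 99.6, whereas the F364 lines were 76.6 apart. Without the splenic tumor the ratio was 0.759, from 1 pair of control lines. For F326 ROV alone, the only control line from an ovary, against the 4 others, the median log2 fold change was -0.98 for M phase, -0.90 for S phase, -0.38 for homologous recombination and Fanconi genes, and 0.69 for the nuclear respiratory chain.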

How the data were processed

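Polyadenylated RNA of 11 ex vivo lines was sequenced with a directional kit. The authors deposited raw counts per gene, made by alignment to mm10 (GRCm38) with RNA STAR, removal of PCR duplicates with SAMtools RmDup, and featureCounts. The strand setting of the counting is not given in the sources used here. Duplicate removal can lower the counts of abundant genes, muscle fiber genes included.

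From these counts, CPM was computed over each library's total, and S1 to S7 were tested with edgeR 4.0.16 in R 4.3.3 (filterByExpr, TMM factors, quasi-likelihood test, Benjamini-Hochberg adjustment). Python 3.11.15 with pandas 2.3.3, numpy 2.4.6, scipy 1.17.1, and matplotlib 3.10.9 gave list summaries, exact permutation tests, and plots. The edgeR and DESeq2 steps were tested on simulated counts with known fold changes, the same dispersion for every gene, and no shared mice. That run cannot decide between the differing call counts of these tools. Distances used a pseudocount of 1. The control lines, lists, and tests were chosen with earlier results of these data known, and the respiratory chain lists, the M phase to mesenchymal ratio, the counts without overlap on other scales, and the backgrounds from S8 to S11 were added after values had been seen. Of 632 listed genes, 623 were in the table.

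Named genes were Myc, Brca1, Ccne1, and Trp53, then, since no gene passed the test, the 10 higher and 10 lower genes with a mean of at least 5 CPM and the widest gap on log2(CPM + 1), and for each list the 3 members without overlap of largest fold change, the member with the most counts, and exceptions to the list. Cdc20, Foxm1, Mki67, Cenpf, Mcm5, Cdkn1c, Nolc1, Krt5, and members named only in counts were described beside them after their values were seen. Alternatives were DESeq2 1.42.0, limma 3.58.1 (voom) with mouse as a random block, other scalings and filters, all 11 libraries in the fit, counts summed per mouse, muscle fiber genes left out or as a covariate, F326 ROV alone, and each line left out.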

Additional observations from a re-analysis of the deposited data

Results flagged for a closer look

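In 7 of 52 values tested, 1 of the 4 other lines stood farther from its group than Dixon's 95% critical value allows, which chance gives in about 1 of 20 groups. F318 ROV had the highest summed S phase level, 1178 CPM, with the other 3 lines at 919 to 960 CPM. It also had the highest Myc, 93.6 CPM, the highest Siglecg, 68.2 CPM, and the lowest summed Y-linked level, 131 CPM. F319 ROV had the highest sum of mesothelial and ovarian surface markers, 886 CPM. F364 LOV had the lowest Rilp, 20.4 CPM, and the highest Unc5b, 218 CPM. The group of 3 control lines was not tested in this way.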

How the results depend on the processing

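The negative medians of the M phase and S phase lists and the positive median of the nuclear respiratory chain kept their sign under every alternative run, and of 28 lists 16 kept it and 12 did not. DESeq2 called 516 genes, edgeR without a filter on low counts 1, and edgeR with each line left out 0 to 111, the highest without the F326 splenic tumor. At an unadjusted p, 713 genes were lower for F326 ROV alone, a fit in which 1 library is assumed to vary like the 4 others that supply the spread, and 780 higher with the muscle fiber share as a covariate. With each line left out, 447 to 2012 genes were higher and 600 to 1978 lower at an unadjusted p, the lowest without F361 and the highest without the splenic tumor, and 820 to 2652 lay higher and 1658 to 3488 lower without overlap, counts that rise by construction with fewer lines.

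For F326 ROV alone, medians were -0.98 for M phase, -0.90 for S phase, -0.38 for homologous recombination and Fanconi, -0.94 for chemokines, 1.73 for granulosa, -0.44 for leukocyte, -1.64 for erythroid, and 0.070 for Y-linked genes. With library totals alone the median of other DNA repair was -0.12. With the muscle fiber share as a covariate it was 0.42 for collagens, 0.22 for smooth muscle, and -1.31 for epithelial genes. With mouse as a random block (voom, consensus correlation -0.21) it was 0.41 for collagens, -0.20 for chemokines, -1.83 for mesothelial, and -1.31 for granulosa genes, and with DESeq2 -2.06 for mesothelial genes. With each line left out, medians ranged from -2.41 to -1.35 for M phase, -1.43 to -0.91 for S phase, -0.85 to -0.25 for p53 targets, -1.08 to 0.31 for collagens, -0.26 to 0.33 for chemokines, -1.20 to 0.18 for smooth muscle, -1.11 to -0.15 for epithelial, -4.37 to -1.05 for mesothelial, -2.07 to 1.0 for granulosa, -0.19 to 0.42 for leukocyte, and -1.60 to 0.54 for erythroid genes.

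Trp53 reversed to -0.11 with counts summed per mouse and with library totals alone, and ranged from -0.10 to 0.17 with each line left out. Col1a1 reversed to 1.16 with the covariate and 0.73 with the mouse block, and ranged from -2.30 to 0.80. Myh4 reversed to 0.12 for F326 ROV alone and 0.066 per mouse, and ranged from -0.36 to 0.087. Ccnb2 was 0.035 for F326 ROV alone. The ratio of distances was 0.759 to 1.21 with each line left out. The cause of these changes was not tested.

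No paired analysis was possible because the labels give no replicate numbers shared between the groups, and no mouse gave lines to both. With 1 library per line, 2 mice against 3, and site of origin largely aligned with control status, small differences were not detectable at this design. Genes near 3 counts, such as Ncapg in F361, rest on counting error as well.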
